A study of Mus musculus with 8 samples.

Results

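Notch receptors, their Delta-like and Jagged ligands and their Hes and Hey target genes were examined in liver macrophage preparations of mice on a western diet. The members were taken from the authors' deposited table as every gene whose symbol is Notch, Dll, Jag, Hes or Hey followed by digits only. This gave 4 genes of 2386 listed: the ligand genes Dll4 and Dll1, the receptor gene Notch4 and the target gene Hes1. Both groups were C57BL/6 mice, an inbred strain, and differed by diet alone as far as the labels say: western diet (WD, 4 libraries) and normal diet (ND, 4 libraries). The sources used here do not give the age and sex of the mice, what the diets held and how long they were fed, or how macrophages were isolated. The table writes its groups as WDV and NDV, here read as the WD and ND libraries, and it gives 1 fold change per gene with no value for any single library. It holds only genes with a p-value below 0.05 and a change of more than 2-fold. The members were thus chosen by the same comparison that is described here, and their fold changes are descriptions without a test.

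Notch receptors are cut after a ligand on a neighbouring cell pulls on them, and the freed intracellular part enters the nucleus, where it joins the DNA-binding protein RBPJ and switches on repressor genes of the Hes and Hey families. In vessels, Dll4 is the ligand by which endothelial cells restrain sprouting in their neighbours, and Notch4 is a receptor found mainly on endothelium. In mouse liver, Notch ligands on sinusoidal endothelium are among the signals by which monocytes that enter an emptied niche take on Kupffer cell identity.

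The promoter windows of Dll4 and Notch4 are shown because these are the members with the largest falls. Each window runs from 250 bases before to 50 bases after the RefSeq start on GRCm38.p6 and is printed 5′ to 3′ on the plus strand, which is the strand of both genes, at chr2:119325534-119325833 for Dll4 and chr17:34564045-34564344 for Notch4. Capitals mark the ETS core word GGAA on either strand and, in Notch4, the AP-1 word TGACTCA.
Dll4: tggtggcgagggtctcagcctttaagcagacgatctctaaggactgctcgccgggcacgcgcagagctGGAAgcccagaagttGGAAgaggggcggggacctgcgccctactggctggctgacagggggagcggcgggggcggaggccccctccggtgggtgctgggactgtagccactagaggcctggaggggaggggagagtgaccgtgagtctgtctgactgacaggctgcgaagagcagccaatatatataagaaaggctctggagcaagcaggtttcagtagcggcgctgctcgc
Notch4: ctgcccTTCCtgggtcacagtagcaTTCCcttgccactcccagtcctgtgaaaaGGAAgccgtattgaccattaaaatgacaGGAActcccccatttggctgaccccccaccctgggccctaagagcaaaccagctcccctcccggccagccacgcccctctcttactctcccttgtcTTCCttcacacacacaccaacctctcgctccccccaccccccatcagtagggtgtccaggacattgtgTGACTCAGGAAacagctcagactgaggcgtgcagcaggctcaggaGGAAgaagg
The Dll4 window held the ETS core 2 times and the Notch4 window 7 times, against a median of 3 over all 32851 windows, of which 96.0% held at least 1. The AP-1 word was searched after the letters had been read, and it stood 1 time in the Notch4 window, against 5.20% of all windows with at least 1. The RBPJ core TGGGAA, which contains GGAA, was absent from the 1 window of Dll4, the 1 window of Notch4 and both windows of Dll1, and 25.6% of all windows held it on either strand. Its longer form GTGGGAA and the E box CACGTG, a word of Hes and Hey proteins, were also absent from these windows, against 6.38% and 7.15% of all windows with them. The N box CACNAG, another Hes word, stood 1 time in the Dll4 window and 1 time in 1 of the Dll1 windows, and 42.5% of all windows held it. The SOX core ACAAT was absent from the Dll4 window, stood 1 time in that of Notch4 and 3 times in 1 of the Dll1 windows, and was held by 31.0% of all windows. A word match is a description of letters and not a binding site.

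Both Notch ligand genes in the table were lower under western diet. Dll4 (ENSMUSG00000027314, protein-coding, chromosome 2, 119325784 to 119335962, plus strand, mm10) had a mean normalized count of 251 over all libraries and a log2 fold change of -3.19 ± 0.19 (SE) in the authors' deposited table, with an adjusted p of 4.36e-58. This is a 9.12-fold lower level, with a 95% interval of the log2 fold change from -3.57 to -2.81. By p-value Dll4 was at rank 11 of the 17531 genes given an adjusted p by the authors, here called tested genes. The mean count and fold change together imply group means of 49.7 normalized reads in WD and 453 in ND, if both diets entered the mean with 4 libraries each. How far single libraries overlapped is not shown by the table. In a bulk sample of this kind, fewer cells of a type and less RNA per cell cannot be told apart.

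Dll1, a second Delta-like ligand, was the member with the lowest count. Dll1 (ENSMUSG00000014773, protein-coding, chromosome 17, 15367354 to 15376872, minus strand) had a mean normalized count of 43.3 and a log2 fold change of -1.84 ± 0.32 (SE) in the authors' deposited table, with an adjusted p of 1.21e-07. The implied group means were 18.9 normalized reads in WD and 67.7 in ND, a 3.58-fold lower level. Its 95% interval, from -2.46 to -1.21, was the widest of the 4 members and did not overlap that of Dll4. Dll3, Jag1 and Jag2 were not listed, and neither were the related ligand genes Dlk1, Dlk2 and Dner. Whether an unlisted gene failed on p, on fold change or on detection is not known.

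Notch4 was the single Notch receptor gene listed. Notch4 (ENSMUSG00000015468, protein-coding, chromosome 17, 34564268 to 34588503, plus strand) had a mean normalized count of 283 and a log2 fold change of -2.84 ± 0.18 (SE) in the authors' deposited table, with an adjusted p of 1.17e-55. Its level was 7.16-fold lower, at implied means of 69.3 normalized reads in WD and 496 in ND. It was at rank 13 by p-value, and its 95% interval from -3.18 to -2.50 overlapped that of Dll4. Notch1, Notch2 and Notch3 were not listed.

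Hes1, a repressor that is a direct Notch target in many cell types, was the most abundant member and had the smallest fall. Hes1 (ENSMUSG00000022528, protein-coding, chromosome 16, 30064384 to 30067796, plus strand) had a mean normalized count of 710 and a log2 fold change of -1.45 ± 0.16 (SE) in the authors' deposited table, with an adjusted p of 1.21e-17. The implied means were 380 normalized reads in WD and 1040.0 in ND, a 2.73-fold lower level, at rank 448 by p-value. The 95% interval of Hes1, from -1.77 to -1.13, overlapped that of Dll1 but neither that of Dll4 nor that of Notch4. The other 8 Hes and Hey genes looked up, Hes2, Hes3, Hes5, Hes6, Hes7, Hey1, Hey2 and Heyl, were not listed.

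**Figure D1:**
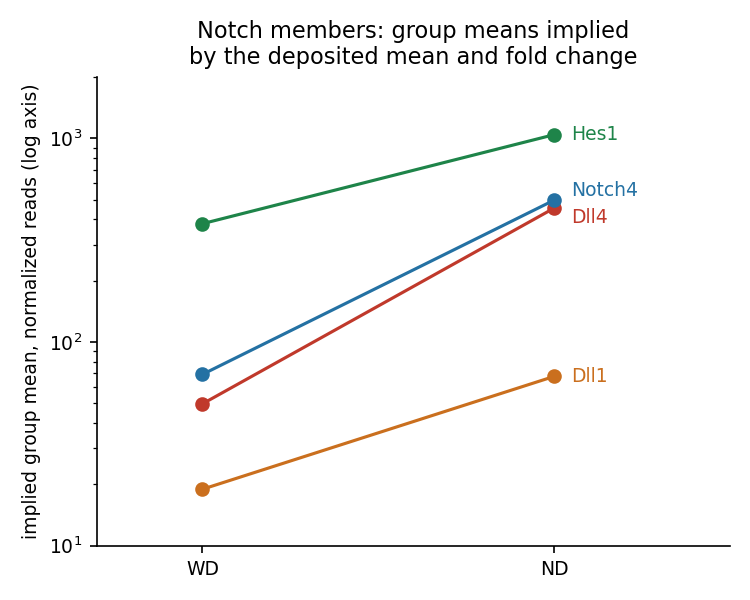
Group means of normalized reads implied by the deposited mean count and fold change for Dll4, Notch4, Hes1 and Dll1, with WD at the left and ND at the right on a log axis. The lines of Dll4 and Notch4 are the steepest, with 49.7 and 69.3 in WD against 453 and 496 in ND, and no replicate error is drawn because the table holds no values per library.

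All 4 members passed an adjusted p of 0.05, and for a set taken from this table that share is close to what the table itself gives. Of its 1680 genes with a negative fold change 87.1% passed, and of all 2386 listed genes 61.4% were called lower. The intervals of all 4 members lay wholly beyond 2-fold, as did those of 39.8% of all listed genes on the lower side. The rule admits a gene at a log2 change just above 1 in size, and the member nearest to that limit was Hes1 at -1.45 in the authors' deposited table. No gene just outside the limit can be given, since such genes are not in the table. Among the 1680 lower genes, 256 had a larger fall than Dll4, 422 than Notch4, 1014 than Dll1 and 1261 than Hes1.

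**Figure D2:**
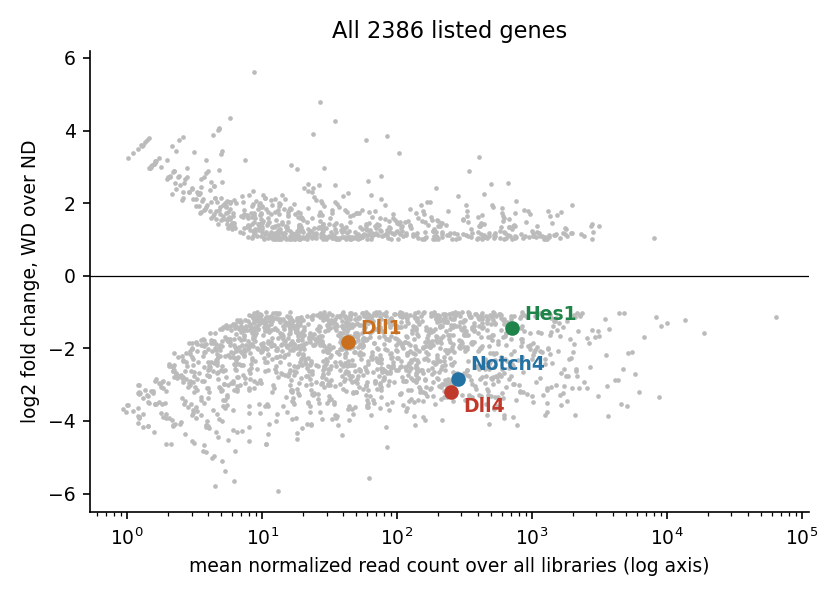
Log2 fold change (WD over ND) against the mean normalized read count (log axis) for all 2386 listed genes, with the 4 members in colour. The empty band between -1 and 1 is the authors' fold limit, and Dll4 and Notch4 lie at mean counts of 251 and 283, lower in the cloud than Hes1 and Dll1.

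Levels of different genes were set side by side per kilobase of annotated exon, since longer transcripts collect more reads. On this scale the mean level over all libraries was 349 normalized reads per kb for Hes1, 65.3 for Dll4, 35.1 for Notch4 and 10.3 for Dll1. The order was the same for the implied group means, at 187, 12.9, 8.60 and 4.49 normalized reads per kb in WD and 511, 118, 61.5 and 16.0 in ND. Dll4 had 0.187 times the mean level of Hes1 per kb and 6.36 times that of Dll1. Dll4 exceeded Notch4 by 1.86 times per kb, although Notch4 had the higher mean count, because its annotated exons span 8.06 kb against 3.85 kb in Dll4. Whether neighbours in this order differ beyond their spread was not tested, as the table gives no error for a mean count.

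The authors' SE of each member was set beside those of genes read at a similar depth. In the authors' deposited table the SE of Dll4, 0.19, compared with a median of 0.21 among 255 listed genes within 1.5-fold of its mean count. For Notch4 the median was 0.21 among 248 genes, for Hes1 0.20 among 171 and for Dll1 0.32 among 342. Smaller SEs than the member's were found in 40.4% of these genes for Dll4, 27.4% for Notch4, 28.1% for Hes1 and 47.7% for Dll1. The wide interval of Dll1 was thus near the middle for listed genes of its depth. Listing needed a p-value below 0.05, so genes with larger SEs may be missing from these sets.

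Antisense transcripts overlap both ligand genes in the GENCODE vM21 annotation. Gm14207, a processed transcript on the opposite strand (chromosome 2, 119321187 to 119326194), covers the first 411 bases of Dll4 and the whole printed promoter window, and the exons of both genes share 214 bases. Gm14207 itself was lower, with a mean normalized count of 15.1 and a log2 fold change of -1.91 ± 0.48 (SE) in the authors' deposited table (adjusted p 0.000514). A930024N18Rik, a long noncoding gene on the strand opposite to Dll1, shares 867 exon bases with it and was not listed. Whether the reads were counted by strand is not given in the sources used here, so reads in these stretches cannot be told apart between the partners. Notch4 overlaps the pseudogene Gm20462 within its introns, with 0 shared exon bases, and Hes1 overlaps no other annotated gene.

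Most genes of the wider Notch pathway were not in the table. Of 71 pathway genes looked up, 58 were not listed, 12 were called lower and 0 higher, and 1, Nrarp, was listed without passing. The 4 members are among the 12 and were chosen by this comparison. Without them 8 of 67 pathway genes were called lower, a share of 11.9%, against 8.35% of all 17531 tested genes. Here and for the lists below, the genes looked up may include untested ones, so these shares have unlike bases. Of the tested genes 526 were called higher. The pathway list was chosen with earlier results of these data known. The median log2 fold change of the 13 listed genes was -1.84, against -2.08 over all 1680 listed lower genes.

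Among target and feedback genes outside Hes and Hey, 4 of 10 were called lower, against 8.35% of all tested genes. These genes are part of the pathway list, which was chosen with earlier results of these data known. All 20 endothelial markers given below were called lower too, and whether the share goes beyond that of endothelial genes was not tested. Efnb2, which encodes an arterial ephrin ligand, had a mean normalized count of 331 and a log2 fold change of -2.01 ± 0.17 (SE) in the authors' deposited table, and implied means of 132 normalized reads in WD and 530 in ND. Gja4, a gap junction gene of arterial endothelium, stood at -3.05 ± 0.49 (SE) in the authors' deposited table, at a mean count of 643. Its SE was unusually wide, as 98.4% of the 185 listed genes of similar depth had a smaller one. Bcl6b, a transcriptional repressor gene, had a log2 fold change of -1.84 ± 0.27 (SE) in the authors' deposited table. Gja5, a second arterial gap junction gene, was close to the limit at -1.63 ± 0.64 (SE) with an adjusted p of 0.0413 and a mean count of 8.85 in the authors' deposited table. Nrarp, a feedback inhibitor induced by Notch, was listed at -1.09 ± 0.55 (SE) without passing (adjusted p 0.132, mean count 9.75, authors' deposited table). The Deltex genes Dtx1, Dtx2, Dtx3, Dtx3l and Dtx4 were not listed.

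Genes that handle ligands and receptors were represented by 4 further falls. They were 1 of 7 genes of ligand endocytosis, 1 of 5 of glycosylation and 2 of 5 of receptor turnover. Of all tested genes 8.35% were called lower. Epn2, an epsin gene for the endocytosis of ligand, had a mean count of 202 and a log2 fold change of -2.35 ± 0.15 (SE) in the authors' deposited table, and the other 6 genes of ligand endocytosis, with Mib1 and Mib2 among them, were not listed. Mfng, a fringe glycosyltransferase gene that alters how receptors respond to ligands, was just past the fold limit at -1.06 ± 0.14 (SE) in the authors' deposited table, while Lfng, Rfng, Pofut1 and Poglut1 were not listed. Numb, an inhibitor of Notch, stood at -1.18 ± 0.20 (SE) and Nedd4, a ubiquitin ligase gene, at -1.94 ± 0.22 (SE) in the authors' deposited table. None of the 13 genes of the nuclear complex, Rbpj and Maml1 to Maml3 among them, and none of the 10 genes of receptor cleavage, Adam10 among them, was in the table.

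**Figure D3:**
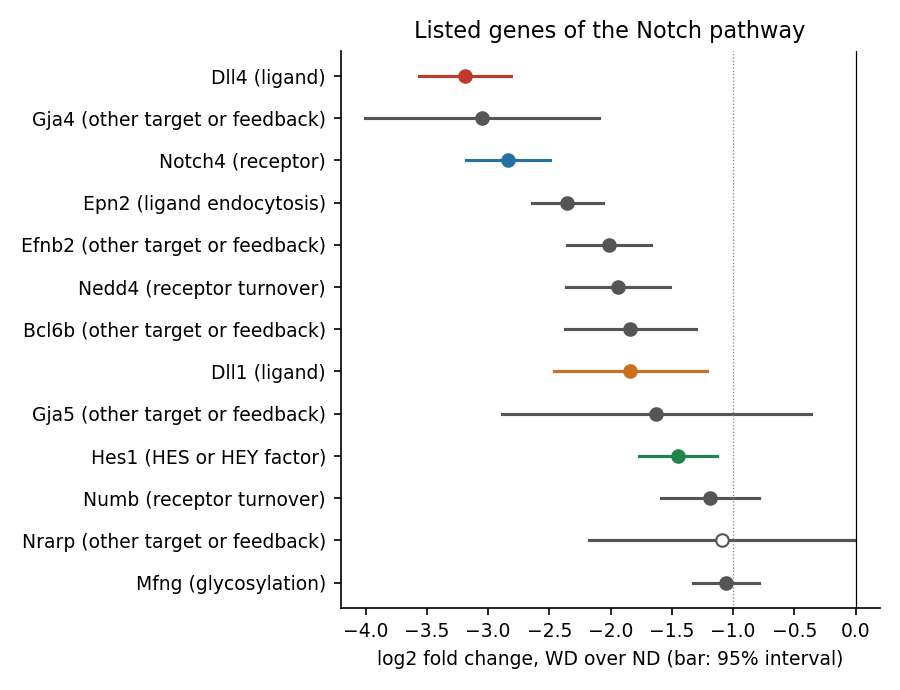
Log2 fold change (WD over ND) of the 13 listed Notch pathway genes with 95% intervals, members in colour, and the open circle marking Nrarp, which did not pass. All 13 points lie left of the dotted 2-fold line, and the intervals of Mfng, Numb, Gja5 and Nrarp cross it.

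A list of 27 genes was looked up as possible upstream factors of endothelial Dll4 and Notch4. Of these, 18 were called lower, 0 were called higher and 9 were not listed. Whether each acts on Dll4 or Notch4 in these cells was not tested. The called share was 66.7%, against 8.35% of all tested genes. This list was chosen with earlier results of these data known, and all 20 endothelial markers given below were called lower too. Whether the share goes beyond that of endothelial genes was not tested. Bmp2, Eng and Kdr are also in the list of endothelial markers given below. The 18 had a median log2 fold change of -2.53 and a range from -4.11 to -1.24. All 3 SOX F factor genes, which act in arterial and sinusoidal endothelium, were among them: Sox17 at -4.11 ± 0.25 (SE), Sox18 at -3.85 ± 0.32 (SE) and Sox7 at -2.43 ± 0.26 (SE) in the authors' deposited table. The ETS factor gene Erg stood at -2.99 ± 0.25 (SE) and Ets1 at -1.24 ± 0.11 (SE) in the authors' deposited table, and Fli1, Ets2 and Etv2 were not listed. Of 7 VEGF signalling genes 6 fell, with Kdr, the main VEGF receptor gene, at -3.59 ± 0.42 (SE) in the authors' deposited table. Of 6 BMP signalling genes 5 fell, and Gdf2, which encodes the circulating ligand BMP9 made by stellate cells, was at -2.52 ± 0.65 (SE) in the authors' deposited table.

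Endothelial markers fell in the same comparison, and the members were placed among them. All 20 endothelial markers were called lower, with a median log2 fold change of -3.16 and a range from -4.12 to -1.38, at mean counts from 268 to 9034. Of all tested genes 8.35% were called lower, and the markers were chosen with earlier results of these data known. Their implied group means summed to 17374 normalized reads in WD and 102594 in ND, and none was at 0 in WD, where the lowest was 60.6. Dll4 was 0.03 below that median and Notch4 0.32 above it on the log2 scale. Dll1 stood 1.32 and Hes1 1.71 above it. Of the 20 markers, 10 had a larger fall than Dll4, 13 than Notch4, 16 than Dll1 and 19 than Hes1. The 95% intervals of 15 markers overlapped that of Dll4, 14 that of Notch4, 10 that of Dll1 and 4 that of Hes1. These differences were not tested, since all genes were measured in the same libraries and their joint error is not in the table. The part of endothelial cell content in the falls of the members was not tested.

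Markers of other cell types were looked up as well. Of 16 macrophage markers, the Fc receptor gene Fcgr1 was higher, at 1.38 ± 0.13 (SE) with a mean count of 1090 in the authors' deposited table. The other 15 were not listed. A comparison of diets does not check the labelled cell type, since a marker at like levels in both diets is left out. Of 15 stellate cell markers, 8 were called lower and 7 were not listed, with a median log2 fold change of -1.85 among the 8. Of 10 hepatocyte markers 3, of 12 T and NK cell markers 8 and of 6 B cell markers 2 were called higher, and 0 were called lower. Of all 17531 tested genes, 8.35% were called lower and 526 genes were called higher. Of 8 cholangiocyte markers, Pkhd1 was listed at 1.02 ± 0.50 (SE) without passing (adjusted p 0.112, authors' deposited table).

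Kupffer cell identity genes were mostly outside the table. Of 16 genes looked up, 1 was called lower and 1 higher. The other 14 were not listed, among them Clec4f, Timd4, Vsig4, Nr1h3, Spic and Id3. Of all 17531 tested genes, 8.35% were called lower and 526 genes were called higher. The endothelial junction gene Cdh5, which Kupffer cells also use, was lower at -1.68 ± 0.27 (SE), and Il18bp, which binds interleukin-18, was higher at 1.11 ± 0.18 (SE) in the authors' deposited table. Cdh5 is also 1 of the 20 endothelial markers given above.

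**Figure D4:**
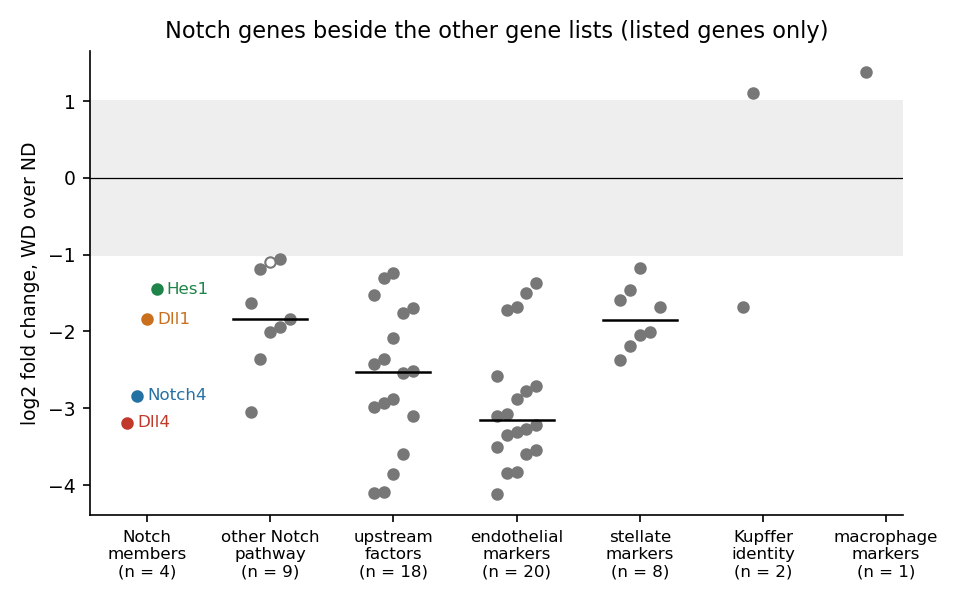
Log2 fold change (WD over ND) of listed genes in each gene list, with black lines at list medians, an open circle for a gene that did not pass and the authors' fold limit in grey. Dll4 and Notch4 lie within the main body of the 20 endothelial markers, whose median is -3.16, and Hes1 and Dll1 lie near its upper end.

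Listed genes within 500 kb of each member were looked up. Around Notch4, which lies in the major histocompatibility region, 10 of 98 annotated genes were listed, of which 6 were called lower and 4 higher. The lower genes were 6.12% of the annotated genes there and 9.52% around Dll4. Of all 17531 tested genes 8.35% were called lower and 526 genes higher. These shares have unlike bases, since annotated genes may include untested ones. Protein-coding genes were 60 of the 98 near Notch4 and 29 of the 42 near Dll4. The nearest listed gene downstream of Notch4 was the matrix gene Tnxb, lower at -1.26 ± 0.26 (SE) in the authors' deposited table. The nearest upstream of Notch4 was the class II gene H2-Eb2, higher at 1.52 ± 0.32 (SE) in the authors' deposited table. Cfb, the complement factor B gene, was also higher, at 1.17 ± 0.37 (SE), whereas Ddah2, which breaks down an inhibitor of nitric oxide synthase, was lower at -2.87 ± 0.21 (SE) in the authors' deposited table. Around Dll4, 5 of 42 annotated genes were listed and 4 were called lower, Gm14207 among them. Gchfr, a regulator of tetrahydrobiopterin synthesis, was lower at -4.09 ± 0.53 (SE) and Chst14, a dermatan sulfotransferase gene, at -1.58 ± 0.19 (SE) in the authors' deposited table. Tyro3, a receptor tyrosine kinase gene, was listed at -1.39 ± 0.57 (SE) without passing (adjusted p 0.0512, authors' deposited table). Near Hes1, Tmem44 was the 1 listed gene of 21, at -3.97 ± 0.26 (SE) in the authors' deposited table, and none of the 33 genes near Dll1 was listed.

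**Figure D5:**
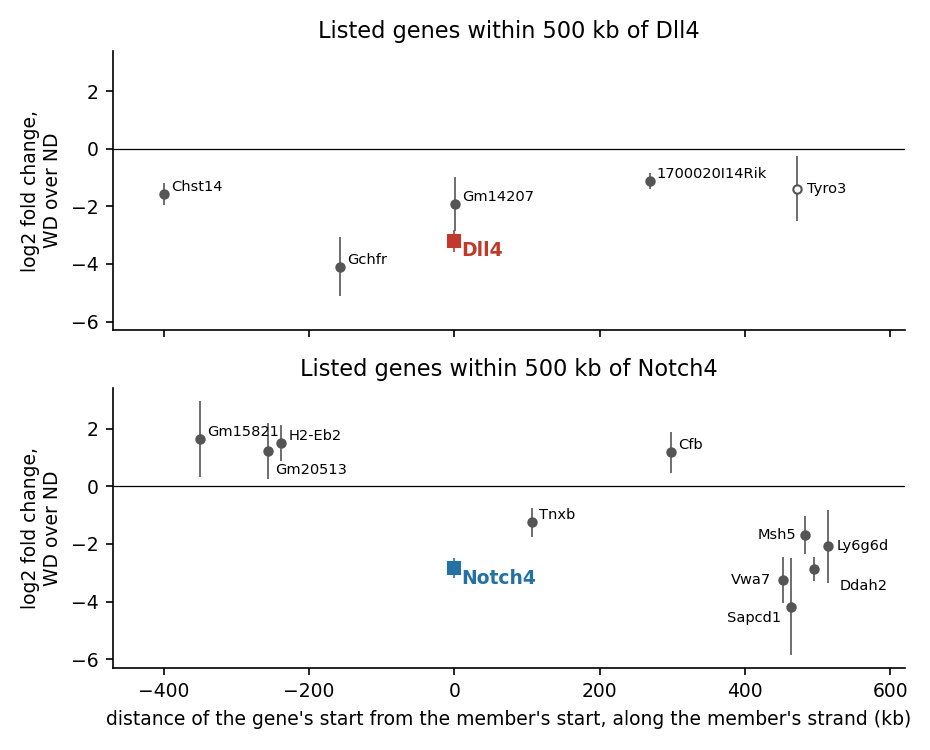
Log2 fold change (WD over ND, bars 95% intervals) of listed genes whose body lies within 500 kb of Dll4 (top) or Notch4 (bottom), against the distance between starts in kb, with an open circle for a gene that did not pass. Listed neighbours of Dll4 all lie below 0, while those of Notch4 lie on both sides, with 4 above and 6 below.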

How the data were processed

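RNA of mouse liver macrophages was sequenced in 4 WD and 4 ND libraries, and groups follow the diet label. Per the labels' protocols, polyadenylated RNA was enriched and primed with random hexamers. The submitters' processing notes give the build mm10 and the tools STAR, STAR-Fusion, HISAT2, StringTie, featureCounts, DESeq and edgeR, with no roles or versions. The authors deposited 1 table of their comparison, with the column names of a DESeq2 result per the file headers. The deposited signal is a mean normalized count over libraries. The deposited log2 values are the fold change, WD over ND, and its SE. The deposited score is their ratio. The deposited p-value comes with a Benjamini-Hochberg adjusted p-value, which 77 of the listed genes lack. No library totals or values per library were analysed here, so depth per library is unknown and no SD can be given. That each library is a separate mouse rests on the series design alone.

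Genes were called at a deposited adjusted p below 0.05. The 95% interval is the log2 fold change ± 1.96 SE. Group means were computed from the mean count and fold change, assuming 4 libraries per diet and an unshrunken fold change. The number of tested genes, 17531, was the whole number that made 91.0% of ranks (p times that number over adjusted p) whole within 0.02, and this step was tested on simulated data. It covers only genes with an adjusted p. All 2386 listed genes matched GENCODE vM21 (GRCm38, as mm10) for coordinates and exon lengths. BMP9 was looked up as Gdf2. Promoter windows came from RefSeq (GRCm38.p6) and matched 3 of the 4 members, not Hes1, and 10 of the 13 listed pathway genes. Words were searched on both strands. The text names all members, every listed pathway gene, and a few genes of the other lists or within 500 kb; of these, Ets1, Kdr, Gdf2, Cfb, Ddah2, Gchfr, Chst14 and Tmem44 were picked with their values in view. The members and lists were chosen with earlier results of these data known. Alternatives were a limit of 0.01, the unadjusted p, a mean count of at least 100, an interval wholly beyond 2-fold and Bonferroni adjustment. Python 3.11.15, pandas 2.3.3, NumPy 2.4.6 and matplotlib 3.10.9 were used.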

Additional observations from a re-analysis of the deposited data

How the results depend on the processing

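The 4 members stayed called lower at an adjusted p below 0.01, with the unadjusted p, with a 95% interval wholly beyond 2-fold (39.8% of all listed genes were lower by this rule) and after Bonferroni adjustment. At a mean count of at least 100, 3 were left because Dll1 is below it. The number of Notch pathway genes called lower ran from 9 to 13 over the alternatives around 12, and 0 were higher in each. Gja5 was lost at 0.01, with the interval and after Bonferroni, Mfng and Numb were lost with the interval, and Nrarp was gained with the unadjusted p. The number of all genes called lower, 1464, moved to 606 at a mean count of at least 100, to 949 with the interval and to 968 after Bonferroni adjustment, each of which is stricter by construction. No member with a promoter window held the RBPJ core in the whole window or before the start, or the longer word. In its place the AP-1 word, chosen after seeing the data, was held by 1 member. No paired analysis was possible because the table has no values per library and the library labels share no numbers between diets. Leaving out a library, another normalization and another count model were not run for the same reason. Depth limits Dll1, Gja5 and Nrarp most, at mean counts of 43.3, 8.85 and 9.75.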
